A study of Drosophila melanogaster with 30 samples.

Results

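This report describes how upregulation of dTrmt10A altered RNA levels in heat-shocked heads of Drosophila melanogaster. It uses 6 of the 30 libraries of the series, the input libraries of 2 groups after heat shock (HS). Both groups carried the DaGal4 driver, which is active in nearly all tissues. The first group was DaGal4> UAS-dTrmt10A, whose transgene comes from 1 insertion line at the attP2 site that was kept over a TM6c balancer. The other group was DaGal4> Control, made with stock 60100 of the Vienna collection, and is called control here. By the labels of these samples, all flies were males taken 1 to 2 days after eclosion from crosses at 25 °C, held in vials of 20 flies and heated to 38.5 °C for 30 min, and each group had 3 replicates of 200 heads. Input is the 10% of the fragmented polyA+ RNA that was set aside before immunoprecipitation of m6A, so that it measures RNA level and not methylation. Every gene in the count table was considered: 10287 of 17562 genes held enough counts in these libraries to be tested. The parent lines differ in background as well as in the transgene, and the 2 cannot be told apart in this design. The labels call the replicates biological but do not say whether they came from separate crosses, so the p-values measure the spread between these pools of heads.

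dTrmt10A (CG14618) is the fly homolog of human TRMT10A, an enzyme that adds a methyl group to the guanosine at position 9 of certain tRNAs. Heat shock activates the transcription factor Hsf, which drives a very strong and fast synthesis of chaperone mRNAs such as those of Hsp70 while the transcription of many other genes slows. The fly head holds neurons, glia and photoreceptors together with fat body, muscle, cuticle and haemocytes. In such bulk RNA, fewer cells of a type and less RNA per cell cannot be told apart.

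Total counts ranged from 25382105 to 38532494 in UAS-dTrmt10A HS heads and from 21015314 to 22663204 in control HS heads, and UAS-dTrmt10A replicate 3 was the deepest. Values are given as CPM, counts scaled to the size of each library after TMM normalization. All 6 libraries had responded to heat, since the 6 Hsp70 copies held from 9.78% to 9.94% of the counts in UAS-dTrmt10A heads and from 9.46% to 9.71% in control heads. The labelled tissue was present as well: the summed level of 13 neuronal markers was 5001 to 5066 CPM in UAS-dTrmt10A heads and 4598 to 4723 CPM in control heads. That of 13 glial markers was 2897 to 3036 CPM in UAS-dTrmt10A heads and 2755 to 2814 CPM in control heads, and for both lists the groups did not overlap. UAS-dTrmt10A HS replicate 3 stood apart in the yolk proteins Yp1 and Yp2, which are made by the fat body of females. Yp1 had 13, 4.50 and 209 CPM in the UAS-dTrmt10A HS libraries, against 1.22, 0.354 and 0.232 CPM in the control HS libraries. Yp2 had 13.6, 4.42 and 138 CPM in the UAS-dTrmt10A HS libraries, against 0.374, 0.974 and 1.25 CPM in the control HS libraries. Both genes passed the test with log2 fold changes of 6.99 (Yp1) and 5.91 (Yp2), and of 3.86 (Yp1) and 3.36 (Yp2) without that replicate. Outside HS the yolk transcripts were also uneven, with Yp1 at 169, 49.2 and 0.262 CPM in UAS-dTrmt10A basal libraries and at 367, 1.31 and 0.454 CPM in control basal libraries.

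**Figure D1:**
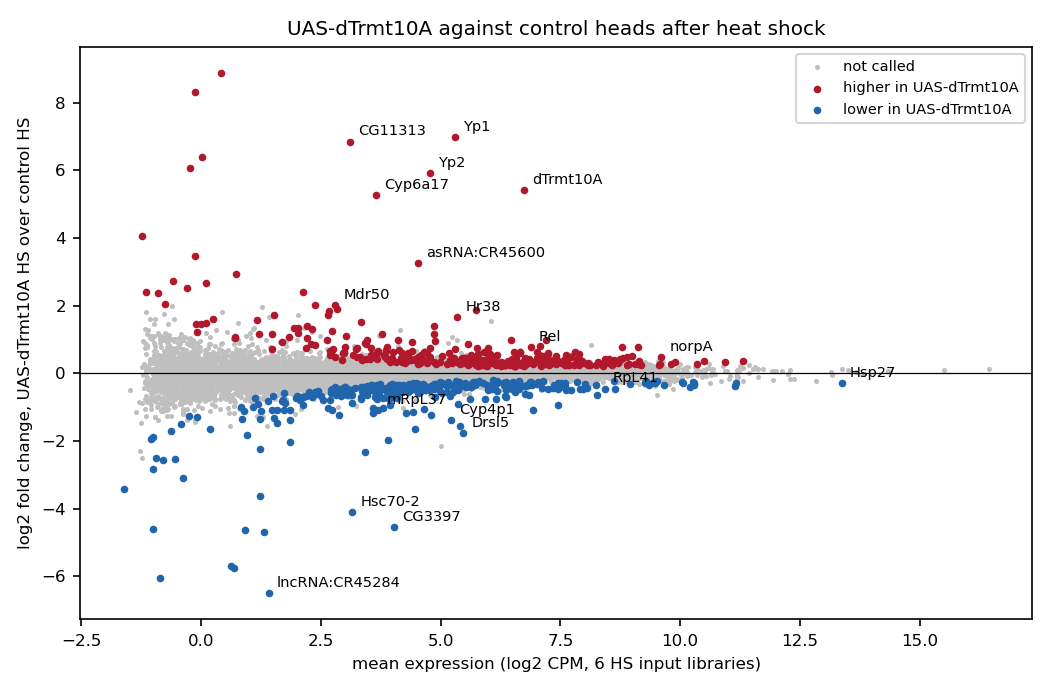
Log2 fold change of UAS-dTrmt10A HS over control HS heads (vertical axis) against mean log2 CPM over the 6 libraries (horizontal axis), with 1 point per tested gene. Red points are the 329 genes higher and blue points the 343 genes lower in UAS-dTrmt10A at an adjusted p under 0.05, and dTrmt10A lies at 5.42.

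To ask which transcripts differed between the genotypes after heat, each gene was tested with the quasi-likelihood F-test of edgeR, and p-values were adjusted over all tested genes by the Benjamini-Hochberg method. At an adjusted p under 0.05, 329 genes were higher and 343 genes were lower in UAS-dTrmt10A HS heads, or 3.2% and 3.33% of those tested (6.53% together). Most differences were modest. The median absolute log2 fold change of the 672 genes was 0.45, and 52 of the higher and 56 of the lower genes differed by at least 1 on the log2 scale. The 2 groups of libraries did not overlap for 671 of the 672 genes, while 30.2% of all tested genes had no overlap.

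The number of genes called depended on which libraries were used. The same-numbered replicates of the genotypes deviated together after HS but not clearly in basal libraries, and the labels do not say that the number marks pairs. With the replicate number as a block 616 genes were higher (5.99%) and 579 were lower (5.63%), together 11.6% of those tested. Of the 672 genes, 667 were also called with the block. Leaving out a library lowered the counts: 145 higher and 192 lower genes without UAS-dTrmt10A replicate 1, 99 and 77 without UAS-dTrmt10A replicate 2, 200 and 165 without UAS-dTrmt10A replicate 3, 92 and 87 without control replicate 1, and 105 and 127 without control replicate 3. Without control replicate 2 the counts were 246 and 269. In all 6 of these fits 133 of the 672 genes were called, and genes that did so are called stable below. Most of the other genes named lost their call in at least 1 of these fits.

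dTrmt10A itself had the lowest p of all tested genes. It lies on the X chromosome (dm6, 22473698 to 22474998). It had 215, 214 and 197 CPM in UAS-dTrmt10A HS heads, against 4.58, 4.96 and 5.05 CPM in control HS heads, a 42.8-fold difference (log2 fold change 5.42, SE 0.08, adjusted p = 3.94e-09). The 2 groups were far apart and the replicates of each were close together, so the libraries matched their labels. Reads of the transgene that fall on the exons of the gene are part of this count. The gene w, which encodes an eye pigment transporter and is used as a marker in transgenes, was 2.38-fold higher, at 9.21, 9.56 and 8.62 CPM in UAS-dTrmt10A HS heads and 3.65, 3.90 and 3.94 CPM in control HS heads.

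Among the other genes with the largest increases, several were close to silent in control heads. CG11313, a gene for a serine protease of the CLIP type, had 446, 420 and 566 counts in UAS-dTrmt10A HS heads, against 3, 4 and 2 counts in control HS heads, a ratio of 114.9 with a 95% exact counting interval of 60.4 to 252. Cyp6a17, which encodes a cytochrome P450 enzyme, had 21.3, 26.5 and 23.4 CPM in UAS-dTrmt10A HS heads and 1.03, 0.398 and 0.417 CPM in control HS heads (log2 fold change 5.27, SE 0.24, adjusted p = 1.2e-05). The antisense RNA asRNA:CR45600 had 42.5, 39.1 and 41.0 CPM in UAS-dTrmt10A HS heads and 4.63, 3.94 and 4.26 CPM in control HS heads, and CG6912, whose 3R interval meets that of this RNA, was 3.67-fold higher. The list of the 15 largest increases also held Obp99a (an odorant-binding protein, 5.33-fold), CG34215 (4.08-fold), Mdr50 (a drug exporter of the P-glycoprotein type, 4.05-fold), Dhc98D (a dynein heavy chain, 3.75-fold), Ets21C (an ETS transcription factor, 3.62-fold), asRNA:CR45144 (3.32-fold), qin (a factor of the piRNA pathway of the germline, 3.28-fold) and Hr38 (3.15-fold). Of these 8 genes, Obp99a, CG34215, Mdr50, Dhc98D, asRNA:CR45144 and qin were stable.

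The largest decreases included genes that were nearly absent from UAS-dTrmt10A heads. The noncoding RNA lncRNA:CR45284 had 3, 1 and 1 counts in UAS-dTrmt10A HS heads, against 113, 123 and 126 counts in control HS heads, a ratio of 0.00998 with a 95% exact counting interval of 0.00322 to 0.0235. CG3397, which encodes an aldo-keto reductase, had 1.30, 1.32 and 1.42 CPM in UAS-dTrmt10A HS heads and 34.2, 31.1 and 29.4 CPM in control HS heads, 23.2-fold lower (log2 fold change -4.54, SE 0.11, adjusted p = 1.41e-07). Hsc70-2, a member of the Hsp70 family of chaperones, had 0.730, 1.32 and 0.938 CPM in UAS-dTrmt10A HS heads and 16.8, 17.8 and 16.9 CPM in control HS heads, 17.3-fold lower. In these 3 genes every UAS-dTrmt10A library was far below every control library. The noncoding RNAs lncRNA:CR32385 and lncRNA:CR44042 were 12.2-fold and 4.11-fold lower, and CG16898, CG12224 and Cyp4p1 were 4.97-fold, 3.92-fold and 2.63-fold lower. All of these were stable.

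The remaining large decreases were less even between libraries. CG16826 had 0.243, 0.199 and 0.152 CPM in UAS-dTrmt10A HS heads and 0.748, 3.94 and 10.4 CPM in control HS heads, and lost its call without any of the UAS-dTrmt10A replicates or without control replicate 3. Drsl5, a member of the drosomycin family of antifungal peptides, had 22.1, 19.1 and 18.8 CPM in UAS-dTrmt10A HS heads and 46.3, 103 and 55.9 CPM in control HS heads. The others were CG11741 (4.73-fold lower), the P450 gene Cyp12d1-d (3.13-fold lower and stable), Ugt37A3 (a UDP-glycosyltransferase, 2.92-fold lower), CG32368 (2.78-fold lower) and CG9616 (2.63-fold lower). Cyp12d1-d has a near-identical copy next to it, and the division of reads between such copies is uncertain.

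**Figure D2:**
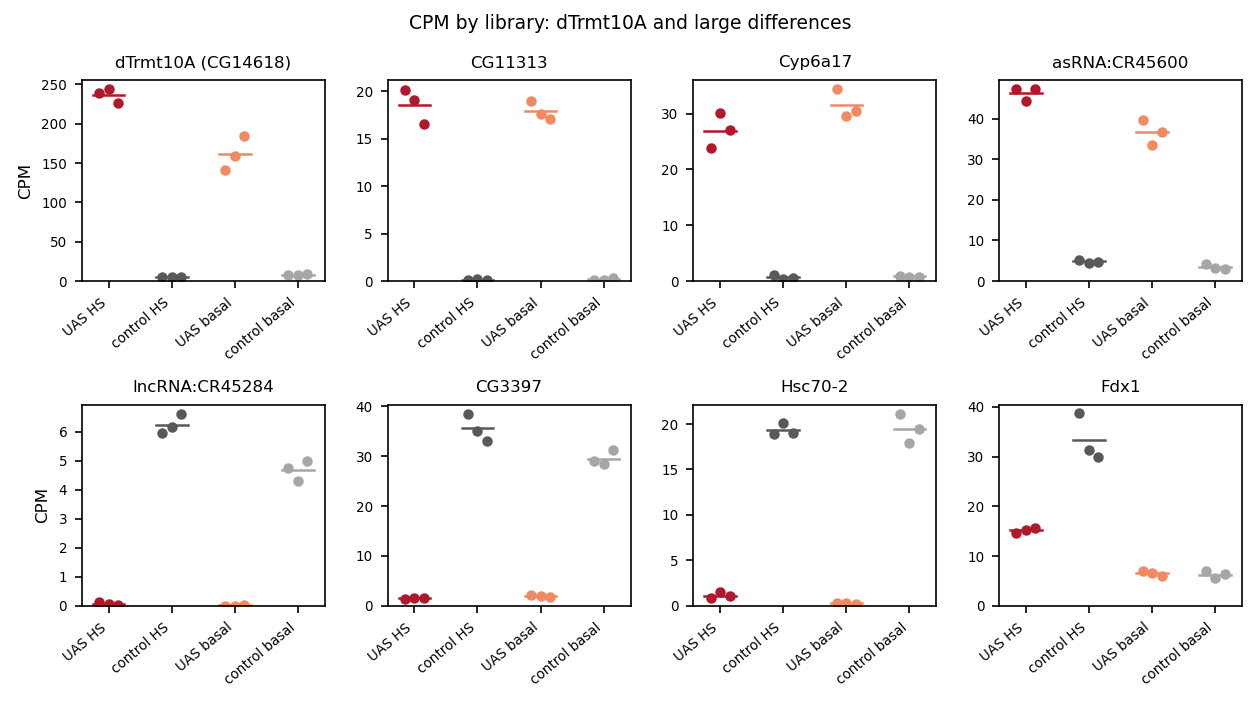
CPM of 8 genes in each of the 12 input libraries of UAS-dTrmt10A HS, control HS, UAS-dTrmt10A basal and control basal heads (points, with bars at the mean of 3 replicates), scaled over those 12 libraries. For dTrmt10A, CG11313, Cyp6a17, asRNA:CR45600, lncRNA:CR45284, CG3397 and Hsc70-2 the genotypes are apart with and without heat, whereas Fdx1 separates in HS libraries only.

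To see which of these differences were present before heat, the 3 UAS-dTrmt10A and 3 control input libraries of basal heads, which share no library with the HS comparison, were tested in the same way. In basal heads 184 genes were higher and 103 were lower, or 1.8% and 1.01% of 10206 genes (2.81% together). Of the 672 genes called after HS, 664 were tested in basal heads. Of these, 153 were called in the same direction and 0 in the opposite one, which is 22.8% of the HS calls and 53.3% of the 287 basal calls. The direction of the estimate was the same for 533 of the 664 genes. CG11313 (basal log2 fold change 6.67), Cyp6a17 (5.21), asRNA:CR45600 (3.43), CG6912 (1.86), w (1.55), CG3397 (-3.95), lncRNA:CR45284 (-7.66) and lncRNA:CR32385 (-5.25) were among the shared calls.

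The difference between the genotype effects with and without heat was tested as an interaction over the 12 libraries. It passed the threshold for 4 of 10544 genes (0.0379%) by edgeR, and DESeq2 called 274. Of the genes called by edgeR, DESeq2 called dTrmt10A and CG30069 and gave no adjusted p for Fdx1 and Hsc70-2. dTrmt10A was higher by 5.42 on the log2 scale after HS and by 4.35 in basal heads (interaction 1.07, SE 0.13, adjusted p = 0.0189). CG30069 had 136, 132 and 129 CPM in UAS-dTrmt10A HS heads and 98.6, 100 and 94.8 CPM in control HS heads, and an estimate of -0.13 in basal heads (interaction 0.57, adjusted p = 0.0189). For Hsc70-2 the log2 fold change was -4.11 after HS and -6.36 in basal heads (interaction 2.25, adjusted p = 0.0251). The basal estimate rests on few counts. On the scale of all 12 libraries Hsc70-2 had 0.316, 0.326 and 0.157 CPM in UAS-dTrmt10A basal heads. There 3 counts equal 0.149, 0.137 and 0.0588 CPM by total counts, before TMM scaling. It had 21.1, 17.9 and 19.5 CPM in control basal heads.

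Fdx1, which encodes a mitochondrial ferredoxin, differed after HS and was called in all 6 fits with a library left out. It had 13.1, 13.4 and 13.6 CPM in UAS-dTrmt10A HS heads and 34.4, 27.7 and 26.5 CPM in control HS heads (log2 fold change -1.14, SE 0.11, adjusted p = 0.000909). Its basal log2 fold change was 0.04, and the interaction was -1.17 (SE 0.16, adjusted p = 0.0205). On the scale of all 12 libraries it had 14.7, 15.3 and 15.7 CPM in UAS-dTrmt10A HS heads and 38.8, 31.4 and 29.9 CPM in control HS heads, against 6.99, 6.53 and 6.01 CPM in UAS-dTrmt10A basal heads and 6.91, 5.56 and 6.39 CPM in control basal heads. Fdx1 lies 273 bp from Hsp67Bc in the small heat shock gene cluster of arm 3L. The interaction of these 4 genes was not called with the replicate number as a block, and 0 genes were called without UAS-dTrmt10A HS replicate 1 or 2, UAS-dTrmt10A basal replicate 2, control HS replicate 1 or 3, or control basal replicate 2 or 3.

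Transcripts of the fast stress response were called on the higher side. Immediate early genes are switched on within minutes by neuronal activity or stress, and the JNK pathway drives a related set in damaged tissue. Of 19 tested genes of this list, 6 were higher and 0 were lower in UAS-dTrmt10A HS heads, where 3.2% of all tested genes were higher, with a median log2 fold change of 0.32 against 0.00 for all genes. Hr38, the fly member of the NR4A nuclear receptors and a marker of neuronal activity, had 88.9, 55.2 and 41.1 CPM in UAS-dTrmt10A HS heads, against 18.0, 17.8 and 22.9 CPM in control HS heads (log2 fold change 1.65, SE 0.26, adjusted p = 0.0107). Ets21C, a JNK-responsive transcription factor, had 16.9, 7.57 and 5.07 CPM in UAS-dTrmt10A HS heads, against 2.01, 2.83 and 3.20 CPM in control HS heads (log2 fold change 1.85, SE 0.44, adjusted p = 0.0449). UAS-dTrmt10A replicate 1 was the highest library for both genes, and without it the log2 fold changes were 1.30 for Hr38 and 1.22 for Ets21C, both still called. Hr38 lost its call without control replicate 1. Ets21C lost its call without UAS-dTrmt10A replicate 2, without any of the control replicates and with an offset for exon length (adjusted p = 0.0633).

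The other 4 members were the early growth response factor sr (log2 fold change 0.67), the stress factor Atf3 (0.45), CG14186 (0.51) and Arc1 (0.43), which encodes a capsid-forming protein of synapses. Atf3 was stable and had 54.1, 52.9 and 52 CPM in UAS-dTrmt10A HS heads and 36.8, 39.8 and 39.5 CPM in control HS heads. In basal heads 1 gene of the list was higher, the median was 0.08, and Hr38, Ets21C and Atf3 had estimates of 0.14, -0.22 and -0.03. The test of the difference between HS and basal did not pass for these 3 genes (adjusted p of the interaction 0.0789, 0.141 and 0.0938). The list kept 1 call without control HS replicate 1, 3 without UAS-dTrmt10A HS replicate 2 or control HS replicate 3, and 5 or 6 otherwise.

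**Figure D3:**
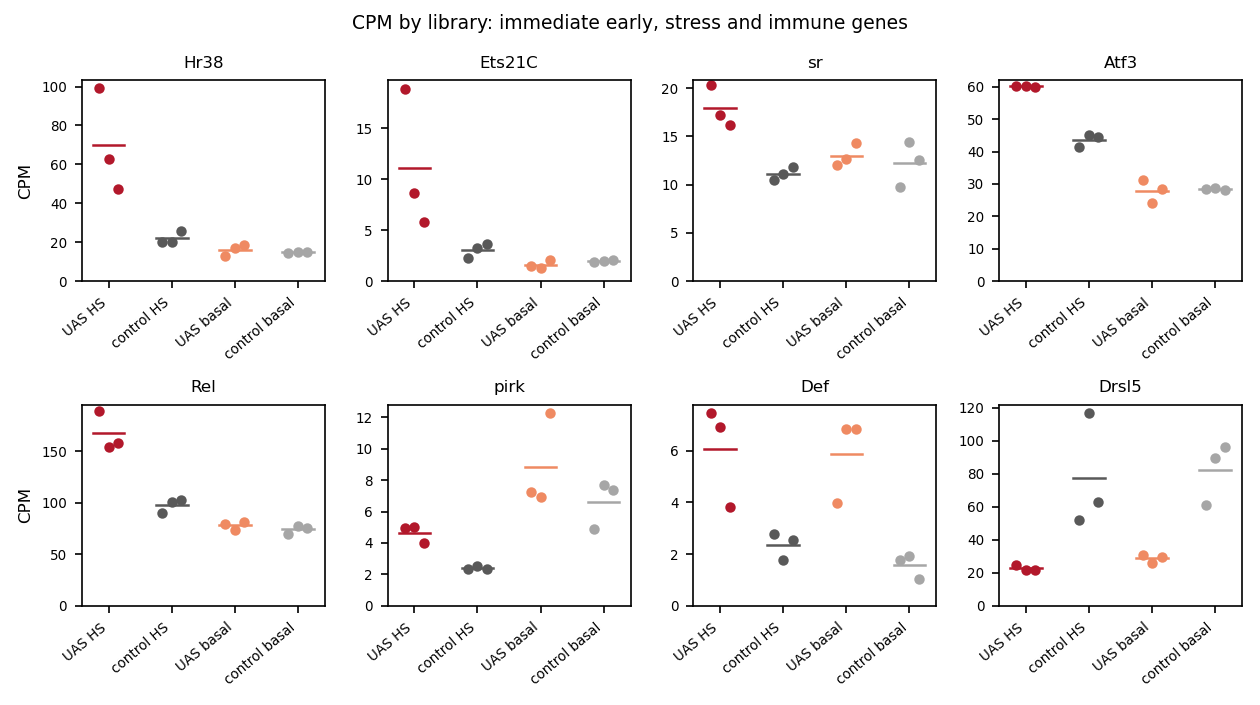
CPM of 4 immediate early and stress genes and 4 immune genes in each of the 12 input libraries (points, with bars at the mean of 3 replicates), for UAS-dTrmt10A HS, control HS, UAS-dTrmt10A basal and control basal heads. Hr38, Ets21C, Atf3 and Rel are raised in the UAS-dTrmt10A HS libraries, whereas Def and Drsl5 separate by genotype with and without heat.

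Genes of innate immunity moved in both directions. Of 32 tested receptors and pathway genes of Imd and Toll signaling, 6 were higher and 0 were lower, where 3.2% of all tested genes were higher. Rel, the NF-kappaB factor of the Imd pathway, had 170, 136 and 137 CPM in UAS-dTrmt10A HS heads and 80.2, 89.2 and 91.2 CPM in control HS heads (log2 fold change 0.77, SE 0.10, adjusted p = 0.00437), and it was stable. Its estimate in basal heads was 0.08 (adjusted p of the interaction 0.0725). pirk, a feedback inhibitor of Imd signaling, rose by 0.92 on the log2 scale, and the peptidoglycan recognition protein gene PGRP-SD by 0.48. The Toll pathway genes Myd88 (0.26), dl (0.31) and GNBP3 (0.33) rose less. The number called fell to 1 without UAS-dTrmt10A replicate 2, control replicate 1 or control replicate 3, to 2 without UAS-dTrmt10A replicate 1 and to 4 without UAS-dTrmt10A replicate 3 or control replicate 2.

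Among the effector peptides, 1 of 18 tested antimicrobial peptides was higher and 1 was lower, where 3.2% of all tested genes were higher and 3.33% were lower. Def, which encodes defensin, had 6.70, 6.10 and 3.32 CPM in UAS-dTrmt10A HS heads and 2.48, 1.55 and 2.27 CPM in control HS heads (log2 fold change 1.34), and Drsl5 was the lower gene (-1.78). Both were called in the same direction in basal heads (1.92 and -1.51). Of 21 Bomanins and other Toll-induced peptides, IMPPP (0.79), CG33470 (0.80) and BomS3 (0.36) were higher and BomS4 (-0.60) was lower. TotX of the Turandot stress peptides was lower (-1.05), with 20.2, 16.4 and 13 CPM in UAS-dTrmt10A HS heads and 35.2, 37.7 and 29.0 CPM in control HS heads, while TotA had an estimate of -0.40 and TotC of -1.01 that did not pass. More genes of these 2 lists were called without heat. In basal heads 3 of 5 Turandot genes were lower and 0 were higher (median -0.66), and 6 of the Bomanin list were higher and 1 was lower.

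Among heat-inducible chaperones, 3 small heat shock genes were lower. None of the 6 Hsp70 copies passed the test of edgeR or DESeq2, and 0 had an unadjusted p under 0.05. Their median log2 fold change was 0.08. Hsp70Aa had 49656, 48112 and 45898 CPM in UAS-dTrmt10A HS heads and 44448, 45446 and 44358 CPM in control HS heads (log2 fold change 0.10, SE 0.04, adjusted p = 0.222). The copies are nearly identical, so their single values are uncertain. None of 11 other chaperones and co-chaperones was called by edgeR or DESeq2 (1 was lower at an unadjusted p under 0.05), and 1 was lower with the block, with estimates of 0.12 for Hsp83 and 0.08 for Hsp68. Among 10 tested small heat shock proteins, which hold unfolded proteins in a soluble state, Hsp27 (-0.28), Hsp67Ba (-0.34) and Hsp67Bc (-0.47) were lower and 0 were higher, where 3.33% of all tested genes were lower. Hsp27 had 10119, 9191 and 9291 CPM in UAS-dTrmt10A HS heads and 11721, 11709 and 11418 CPM in control HS heads, and was called in basal heads too (-0.83). The 3 genes are neighbours of Fdx1 on 3L, and Hsp67Ba and Hsp67Bc were not called with an offset for exon length. With the block 5 genes of this list were lower and 1 was higher, while 0 were lower without UAS-dTrmt10A replicate 2 or control replicate 1, and 1 without UAS-dTrmt10A replicate 3 or control replicate 3.

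Some genes of the ribosomes and of the respiratory chain were lower. Of 85 tested genes of the cytosolic ribosome, 18 were lower and 0 were higher, where 3.33% of all tested genes were lower, and the median log2 fold change was -0.12 with 24 estimates above 0. RpL41 had 298, 284 and 289 CPM in UAS-dTrmt10A HS heads and 427, 380 and 382 CPM in control HS heads (log2 fold change -0.45, SE 0.06, adjusted p = 0.0078), and was stable. RpL23 (-0.40), RpS23 (-0.34), RpS9 (-0.34), RpL21 (-0.30) and RpL31 (-0.29) followed. Of 72 genes of the mitochondrial ribosome 10 were lower and 0 were higher (median -0.22), with mRpL37 as the most changed: 9.05, 7.45 and 8.37 CPM in UAS-dTrmt10A HS heads and 15.9, 17.6 and 19.5 CPM in control HS heads (log2 fold change -1.09). mRpL37 was lower in basal heads too (-0.96).

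Of 67 tested nuclear genes of oxidative phosphorylation 14 were lower and 0 were higher (median -0.13), against 3.33% of all tested genes that were lower. They included the complex I subunits ND-MLRQ (-0.50), ND-MWFE (-0.48) and ND-15 (-0.47), the complex II subunit SdhC (-0.40), the complex III subunit UQCR-6.4 (-0.34) and the complex IV subunit COX8 (-0.34). ND-MWFE had 176, 158 and 160 CPM in UAS-dTrmt10A HS heads and 246, 224 and 218 CPM in control HS heads. Of 16 mitochondrially encoded transcripts, mt:CoII was lower (-0.38) and 0 were higher, a called share of 6.25% against 6.53% of all tested genes. The median of this list was -0.04. With an offset for exon length mt:CoII was not called, 1 gene of the list was higher, 0 were lower and the median was 0.14. In basal heads the medians of the 3 nuclear lists were 0.09 for the cytosolic ribosome, -0.02 for the mitochondrial ribosome and 0.03 for oxidative phosphorylation, with 0, 1 and 0 genes called lower. The block raised the lower calls to 27, 17 and 23. Without UAS-dTrmt10A replicate 2 they were 1, 3 and 0, without UAS-dTrmt10A replicate 3 they were 5, 4 and 3, without control replicate 1 they were 2, 2 and 1, and without control replicate 3 they were 5, 2 and 5.

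These decreases went along with transcript length. When genes were put in 10 groups by summed exon length, the median log2 fold change after HS was -0.15 in the shortest group (65 to 787 nt) and 0.09 in the longest (5812 to 71820 nt). The shortest group held 12 higher and 88 lower genes, and the longest held 79 higher and 7 lower genes. The median exon length was 3077 nt for higher genes and 1248 nt for lower genes, against 2065 nt for all tested genes. In basal heads the trend ran the other way, with 0.06 in the shortest and -0.09 in the longest group. With an offset that removes the trend with exon length, 271 genes were higher (2.64%) and 184 were lower (1.79%), together 4.44%, and 400 of the 672 calls remained in the same direction. The cytosolic ribosome, whose genes have a median exon length of 922 nt, then had 1 lower and 2 higher genes (median -0.01), the mitochondrial ribosome 2 lower and 0 higher (-0.09) and oxidative phosphorylation 3 lower and 1 higher (-0.05). RpL41, mRpL37, mRpS18A, ND-MWFE, ND-15 and SdhC were still called lower with the offset, and RpL23, RpS23, RpS9, RpL21 and COX8 were not. Fragment size or RNA quality of the libraries was not measured here, and the part of length in these results was not tested beyond this offset.

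**Figure D4:**
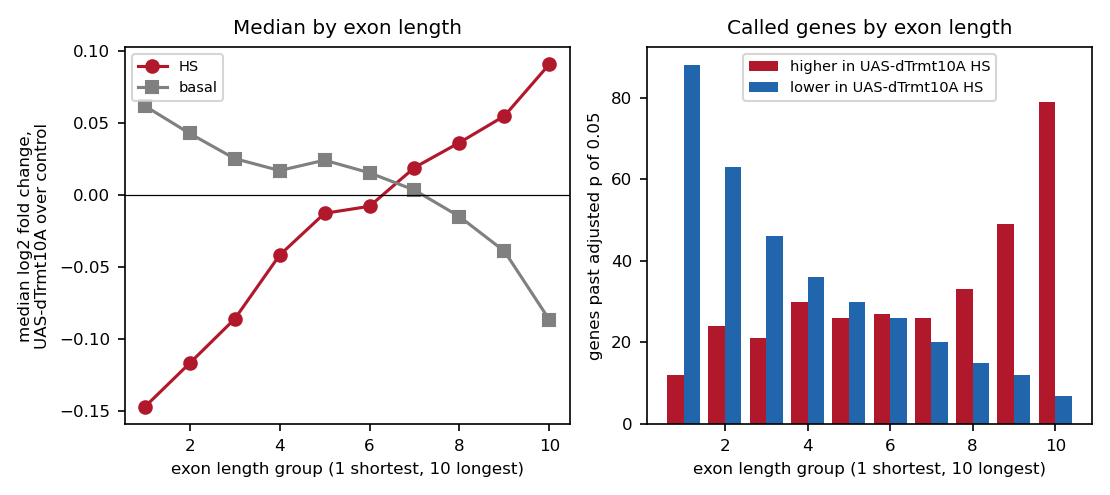
Left, the median log2 fold change of UAS-dTrmt10A over control (vertical axis) in 10 groups of genes ordered by exon length (horizontal axis), after HS (red) and in basal heads (grey). Right, the number of genes higher (red) and lower (blue) in UAS-dTrmt10A HS heads in each group, where the shortest holds 12 and 88 and the longest 79 and 7.

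Most ribosomal protein genes of flies start transcription at a polypyrimidine initiator, the TCT motif, instead of the usual initiator. To show the start sites of lower members, the 30 bases around the annotated start (15 on each side, RefSeq Release 6 sequence, which is dm6) are given for 3 of the lower cytosolic ribosome genes, on 2L, 3L and 3R, with the letters TCTTT in capitals where they occur on the transcribed strand.
RpL21: gctattcaagtagccaTCTTTctttctttt
RpS9: tcacactaccttcaccccTCTTTctttttc
RpS30: attattgccagacatgcaaatgcaattcac
The windows lie at chr2L:22247819-22247848 on the minus strand (RpL21), chr3L:9511517-9511546 on the minus strand (RpS9) and chr3R:20850501-20850530 on the plus strand (RpS30). The letters stood in 10 of the 18 lower cytosolic ribosome genes (55.6%) and in 35 of the 66 that were not called (53%), at similar shares. They stood in 3.57% of the windows of all tested genes, in 4.17% of those of mitochondrial ribosome genes and in 1.49% of those of oxidative phosphorylation genes.

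**Figure D5:**
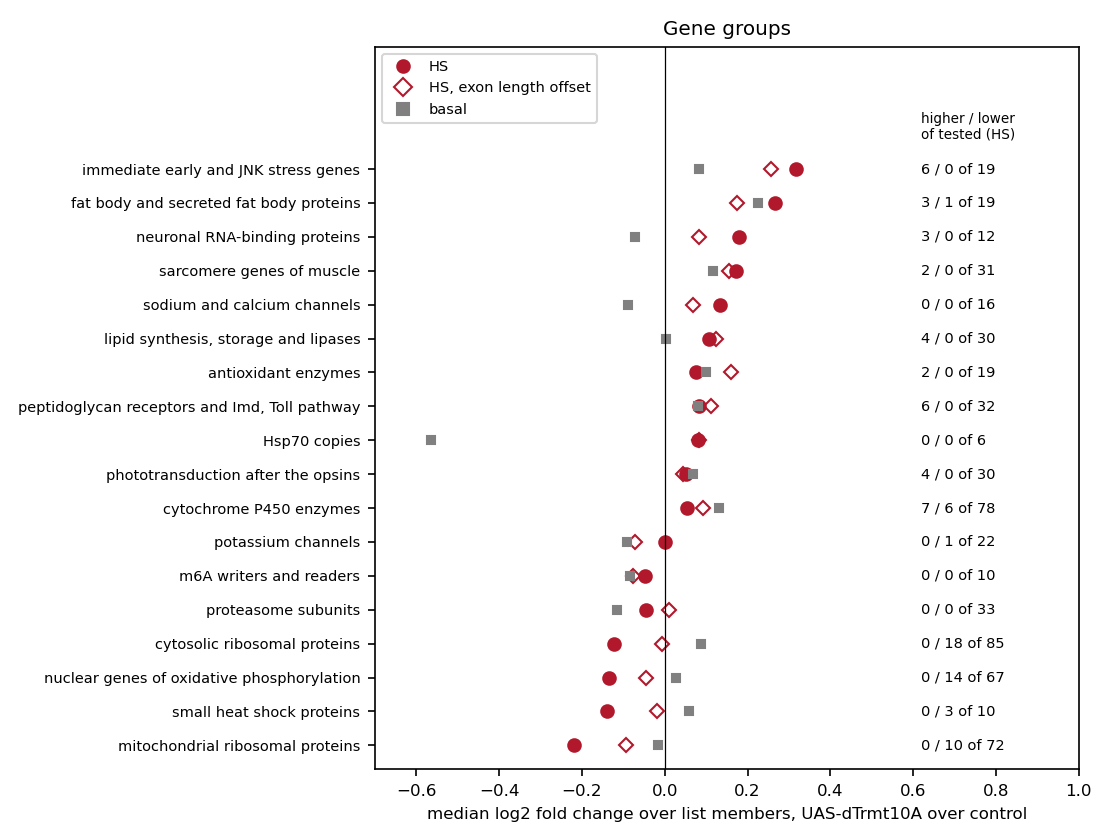
Median log2 fold change of UAS-dTrmt10A over control for 18 gene lists, after HS (filled circles), after HS with the exon length offset (open diamonds) and in basal heads (grey squares), with the numbers of genes higher and lower after HS at the right. The lists shown are a selection from 67. Among them immediate early and stress genes lie highest at 0.32 and mitochondrial ribosome genes lowest at -0.22. Lower medians among lists not shown were those of Turandot stress peptides (-0.40) and of snoRNAs, snRNAs and scaRNAs (-0.37).

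Transcripts of neurons were called in both directions, where 3.2% of all tested genes were higher and 3.33% were lower. The part of the higher summed level of neuronal markers in these results was not tested. Of 12 tested neuronal RNA-binding proteins, Rbp9 (0.35), mbl (0.35) and ps (0.26) were higher and 0 were lower, and Rbp9 had 645, 636 and 622 CPM in UAS-dTrmt10A HS heads and 465, 526 and 498 CPM in control HS heads. These are long transcripts, with a list median of 10970 nt, and 0 were called with the length offset. Of 13 neuronal markers 1 was higher, and of 13 glial markers 0 were called. The synaptic genes Syx1A (0.26) and Vmat (0.24) were higher among 23 of vesicle release, and both lost their call with the length offset and in each of the 6 fits with a library left out. Among 24 genes of monoamine synthesis and receptors, the octopamine receptor Octbeta3R was lower (-0.34) and the dopamine and ecdysteroid receptor gene DopEcR was higher (0.25). nAChRbeta3 (-0.50) was lower among 10 acetylcholine receptor subunits, and Ork1 (-0.32) among 22 potassium channels. The called shares of these lists were 8.33%, 10% and 4.55%, against 6.53% of all tested genes. Of 16 sodium and calcium channels, 19 GABA and glutamate receptors and 13 axonal cytoskeleton genes 0 were called. With the block 3 were higher, 1 was lower and 2 were higher in these last lists. Ork1 and DopEcR lost their call in each of the 6 fits with a library left out, Octbeta3R and nAChRbeta3 in 5 of them, and nAChRbeta3 and DopEcR also with the length offset.

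In the eye, norpA was the clearest case. This phospholipase C carries the signal from rhodopsin to the channels of the photoreceptor, and it had 879, 876 and 948 CPM in UAS-dTrmt10A HS heads and 655, 682 and 614 CPM in control HS heads (log2 fold change 0.47, SE 0.06, adjusted p = 0.00556). It was stable and was also called with the length offset. rdgC (0.28), rdgA (0.26) and rdgB (0.24) completed the 4 higher genes of 30 in phototransduction, where 3.2% of all tested genes were higher and 6.53% were called. These 3 were not called with the length offset, and rdgA and rdgB lost their call in each of the 6 fits with a library left out. Of 7 opsins, with a median of -0.03, Rh5, the blue-sensitive opsin, was higher (0.55 after HS and 0.78 in basal heads). Among 18 eye pigment genes w was higher and bw, which encodes the partner of w in the transport of red pigment, was lower at 63.8, 57.7 and 66.7 CPM in UAS-dTrmt10A HS heads and 107, 102 and 99.6 CPM in control HS heads. Both differed alike in basal heads (1.55 and -0.61).

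Further calls were made in lists of hormones and metabolism. Of 16 ecdysone response genes ImpL2, a secreted binding protein of insulin-like peptides (0.75), ImpE1 (0.53) and Eip75B (0.29) were higher and 0 were lower, while 2 of 33 neuropeptide genes, Ilp3 (-0.55), which encodes an insulin-like peptide, and CCHa2 (-0.61), were lower, a called share of 6.06% against 6.53% of all tested genes. In a list of EGFR, Notch and ETS genes rho (0.44) and kek2 (0.60) were higher among 18 tested and 0 were lower. This higher share was 11.1%, where 3.2% of all tested genes were higher. In lipid metabolism 4 of 30 genes were higher, where 3.2% of all tested genes were higher: the lipase gene Lip4 (0.75, stable), the lipid droplet protein Lsd-2 (0.39, stable), the fatty acid synthase FASN1 (0.37) and yip2 (0.26). Lip4 had 68.9, 64.9 and 68.1 CPM in UAS-dTrmt10A HS heads and 39.3, 39.8 and 41.2 CPM in control HS heads, with a basal estimate of 0.23. With the block 9 genes of lipid metabolism were higher and 2 were lower. Of 19 fat body genes, a main tissue of lipid storage, 3 were higher and 1 was lower (median 0.27, 14 above 0), and 9 were higher and 2 lower with the block. The higher genes were Lsp1beta and the yolk genes Yp1 and Yp2, whose levels were uneven between libraries. Yp1 and Yp2 each kept their call in 2 of the 6 fits with a library left out. With the length offset 1 fat body gene was higher and 0 were lower. The summed level of the fat body list was 6953 to 8916 CPM in UAS-dTrmt10A HS heads and 5554 to 8500 CPM in control HS heads, and the part of fat body content in the lipid genes was not tested. Hex-A (0.24) and Pgi (0.27) of glycolysis and Mal-A5 (0.34) were higher and Ldh was lower (-0.43). Nmdmc, a folate enzyme of mitochondria, was 0.98 higher and stable, and was called in basal heads as well (0.94). The antioxidant enzymes Cat (0.32) and Prx3 (0.32) were higher.

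Genes of detoxification were called in both directions. Of 78 tested cytochrome P450 genes, 7 were higher and 6 were lower (13 of 78, against 6.53% of all genes). The 3 neighbours Cyp4p1, Cyp4p2 and Cyp4p3 on 2R differed in direction: Cyp4p1 had 17.7, 20.1 and 23.2 CPM in UAS-dTrmt10A HS heads and 55.1, 51.7 and 54.2 CPM in control HS heads (-1.39), whereas Cyp4p3 had 18.9, 19.5 and 16.8 CPM in UAS-dTrmt10A HS heads and 9.82, 12.1 and 10.3 CPM in control HS heads (0.77), and Cyp4p2 was also higher (0.97). Cyp12e1 was lower (-1.18) and Cyp4d8 was higher (0.60). In basal heads 8 P450 genes were higher and 5 were lower. Of 21 tested UDP-glycosyltransferases Ugt37A1 was higher (69 counts in all UAS-dTrmt10A HS libraries and 12 in control ones, a ratio of 4.15 with a 95% exact counting interval of 2.23 to 8.43) and Ugt37A3 (-1.55) and Ugt36E1 (-0.70) were lower. These shares were 4.76% and 9.52%, where 3.2% of all tested genes were higher and 3.33% were lower. Of 31 glutathione S-transferases GstO3 was lower (-0.59), a share of 3.23% that did not exceed that of all tested genes. Cuticle genes were mixed, with 4 of 55 higher (7.27%) and 3 lower (5.45%), and Cpr72Ec was the most abundant at 622, 708 and 763 CPM in UAS-dTrmt10A HS heads and 337, 405 and 483 CPM in control HS heads. The fat body storage protein gene Lsp1beta was higher (0.97, stable) and fit, which is expressed in fat body of the head, was lower (-1.22).

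Of 10 writers and readers of m6A and 11 tRNA modification enzymes, 0 passed the test in edgeR, in DESeq2 or with the block, and 1 gene of each list was lower at an unadjusted p under 0.05. The list medians were -0.05 and -0.04. Ythdc1, the nuclear reader of m6A, had 134, 143 and 143 CPM in UAS-dTrmt10A HS heads and 131, 173 and 149 CPM in control HS heads. No gene of 33 tested proteasome subunits, of 16 of the unfolded protein response or of 35 aminoacyl-tRNA synthetases was called by edgeR. The proteasome list varied widely between replicates. Its summed level was 3798, 3786 and 5349 CPM in UAS-dTrmt10A HS heads and 4838, 3320 and 5216 CPM in control HS heads, so modest differences could be missed there. With the block 1 proteasome gene was lower and 1 gene of the unfolded protein response was higher, DESeq2 called 1 gene of the unfolded protein response and 0 of the others, and 0 of 33, 4 of 16 and 11 of 35 had an unadjusted p under 0.05.

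Of 10 genes that the study names in connection with dTrmt10A, pAbp, the poly(A)-binding protein (0.27), and the cell adhesion molecule Nrg (0.32) were higher, and neither was called with the length offset. The study names Nrg, Myc and fl(2)d for m6A and for protein levels of brains without heat. It names DnaJ-1 for m6A without heat and for protein and RNA decay in brains. RNA level of heads after HS is a different measure from these. In its part on heat stress the study names pAbp, SK, para, Sh, bru3 and Ythdc1 among m6A transcripts. Its discussion states that Sh, bru3, para and pAbp were upregulated with more dTrmt10A. The study called genes with DESeq2 at an adjusted p under 0.05, whereas edgeR is the main test here. DESeq2 called 3 of the 10 genes higher in these libraries. pAbp had 863, 825 and 819 CPM in UAS-dTrmt10A HS heads and 690, 721 and 669 CPM in control HS heads, and it kept its call in 1 of the 6 fits with a library left out. The channels para (0.22), Sh (0.19) and SK (0.05), and Myc (0.38), bru3 (0.08), DnaJ-1 (-0.01), Ythdc1 (-0.11) and fl(2)d (-0.11) did not pass. With the block para (adjusted p = 0.0334) and Sh (0.0462) passed, Sh also passed with DESeq2 (0.0456), and para (0.0336), Sh (0.0172) and Myc (0.0301) passed in a fit of all 15 input libraries. Of the study's list of genes with dTrmt10A-dependent m6A, 970 were tested, of which 66 were higher (6.8%) and 9 were lower (0.928%), where 3.2% of all tested genes were higher and 3.33% were lower, with a median of 0.07. That list was chosen by the study on these libraries, so the count is not independent evidence. Its median exon length is 5386 nt, and with the length offset 26 were higher and 8 were lower (median 0.01). The block gave 118 and 16, and the higher genes were 15 without UAS-dTrmt10A replicate 2, control replicate 1 or control replicate 3, and 31 to 38 without UAS-dTrmt10A replicate 1 or 3 or control replicate 2.

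The called genes were spread over all chromosome arms. The X chromosome held 49 higher and 19 lower of 1705 tested genes (2.87% and 1.11%), and 3R held 65 higher and 103 lower of 2530 (2.57% and 4.07%). Some called genes were close neighbours: 91 pairs of adjacent called genes lay within 10 kb of each other, and 62 of them (68.1%) shared a direction, against 52.9% of 7078 adjacent tested pairs that shared a sign. CG12224 and CG3397, 1036 bp apart on 3R, were both lower. Among noncoding genes, 4 of 233 tested long noncoding RNAs were higher and 11 were lower, and 4 of 203 antisense RNAs were higher and 6 were lower. The called shares of 6.44% and 4.93% did not exceed the 6.53% of all tested genes. lncRNA:CR31451 was higher, at 294, 283 and 274 CPM in UAS-dTrmt10A HS heads and 200, 188 and 181 CPM in control HS heads (0.58, stable). lncRNA:CR46123 had 5 counts in all UAS-dTrmt10A HS libraries and 207 in control ones (ratio 0.0174, 95% exact counting interval 0.00561 to 0.0414), and lncRNA:CR44922 (-0.71), asRNA:CR45161 (-1.01) and asRNA:CR45951 (-0.94) were also lower. The sources used here do not say whether the counting used strand, so reads of an antisense RNA and its partner may not be separated.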

How the data were processed

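Head RNA was sequenced as input of m6A-IP libraries. According to the methods, the authors trimmed reads with Trim Galore, aligned them to dm6 with STAR 2.7.3a, and counted reads on FlyBase exons with summarizeOverlaps. The deposited values are raw counts for 17562 genes. Strand use was not given in the sources used here. Counts were analysed with edgeR 4.0.16 in R 4.3.3 (filterByExpr with minimum count 10 and total 15, TMM, glmQLFTest, Benjamini-Hochberg threshold 0.05), with DESeq2 1.42.0 as an alternative. The UAS-dTrmt10A and control libraries of 1 condition were fitted together; the interaction used all 12 input libraries of both genotypes. A CPM of 0.0779 to 0.143 by total counts, before TMM scaling, equals the floor of 3 counts after HS. Intervals cover counting error only. The script was tested on simulated counts.

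Same-numbered HS libraries of the 2 genotypes had residual correlations of 0.162, 0.228 and 0.295, all above 0.1, so the number was taken to pair them. Unlike-numbered HS libraries had -0.294 to 0.0669. In basal libraries the same-numbered correlations were -0.00219, 0.0913 and 0.0259. Unlike-numbered basal libraries had -0.222 to 0.171, so there the number did not mark the closest libraries. Pairing rests on these data, as the labels give only the number.

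Genes were named by rule: dTrmt10A, the 15 largest called changes in each direction (mean log2 CPM of at least 1, no overlap between groups), up to 6 called genes of each of 67 lists (with up to 2 abundant members where fewer than 2 were called), genes the study names, and called interactions; Cyp4p2 and RpS30 were added after their values were seen. Some items that the rule names are not reported here. Lists and comparisons were chosen with earlier results of these data known. Positions and exon lengths come from the Ensembl annotation of dm6; 67 genes did not match. Alternatives were other scalings and filters, DESeq2, the replicate block, an exon length offset, a fit of all 15 input libraries and leaving out each library.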

Additional observations from a re-analysis of the deposited data

Results flagged for a closer look

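The genotype effect differed between HS and basal heads, by the interaction test, for 4 genes. The interaction was 1.07 for CG14618 (dTrmt10A), 0.57 for CG30069, -1.17 for Fdx1 and 2.25 for Hsc70-2 on the log2 scale, where a positive value means a more positive UAS-dTrmt10A effect after HS. CG14618, CG30069 and Fdx1 were each called in 5 of the 12 fits with a library left out, and Hsc70-2 in 3 of 12. With the replicate block the adjusted p was 0.0632 for CG14618 and 0.0866 for each of the other 3 genes. DESeq2 called CG14618 and CG30069 and gave no adjusted p for Fdx1 and Hsc70-2. The groups of 3 libraries were too small to test for outlying samples.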

How the results depend on the processing

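Against 329 higher and 343 lower genes after HS, the replicate block for the paired libraries gave 616 and 579, the exon length offset 271 and 184, both together 581 and 368, and a fit of all 15 input libraries 648 and 636. Leaving out a library gave 92 to 246 higher and 77 to 269 lower genes. In basal heads (184 and 103) DESeq2 gave 297 and 185, the block 112 and 59, and leaving out a library 63 to 201 and 45 to 115. The interaction (4 genes) gave 274 with DESeq2, 15 with no low-count filter, 0 with the block and 0 to 6 with a library left out. Scaling by total library size gave 240 higher and 454 lower genes, and medians of 0.047 for Hsp70 copies, 0.049 for the Imd and Toll pathway and 0.017 for phototransduction. With the length offset, alone and with the block, medians were -0.0077 and -0.0076 for cytosolic ribosomal proteins, -0.0933 and -0.0931 for mitochondrial ribosomal proteins, -0.045 and -0.048 for oxidative phosphorylation and 0.0817 and 0.0815 for neuronal RNA-binding proteins, and -0.018 for small heat shock proteins with the offset alone. With a library left out, medians were 0.19 to 0.37 for immediate early genes, 0.0199 to 0.0635 for phototransduction and -0.10 to -0.0177 for m6A writers and readers. Estimates that were not called changed sign: SK (-0.0534 and -0.0537) and bru3 (-0.0330 and -0.0325) with the offset alone and with the block, DnaJ-1 (0.0034 with the offset, 0.0016 with offset and block, 0.00074 with 15 libraries, -0.0423 to 0.0417 with a library left out) and Ythdc1 (-0.21 to 0.0013 with a library left out). The cause was not tested. Ratios of genes near the floor of 3 counts have wide counting intervals.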
